A study of Mus musculus with 9 samples.

Results

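Kidneys collected 7 days after ischemia-reperfusion injury (IRI) were compared with control kidneys, over the RNA of all sorted nuclei of each mouse. The comparison was defined by the labels: the 2 day 7 mice stood against the 4 control mice, and the raw counts of unique molecular identifiers (UMIs, 1 per captured transcript) of every nucleus were added up per library. It held 6 of the 9 libraries of the series and 20550 of its 27738 nuclei, and the 16939 genes listed in both deposited count tables out of 19858 listed in either. The other 3 libraries, from day 28 after IRI, entered the model fit for its estimate of spread and are given beside day 7 where they bear on a value.

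All mice were males 11 to 19 weeks old. Control mice carried Six2TGC; Rosa26rtTA; pTRE-H2BeGFP and ate food with doxycycline at 625 mg/kg, which puts green fluorescent histone into the nuclei of nephron cells, since the Six2 transgene acts in the embryonic nephron progenitors. Control 1 had no surgery and controls 2 to 4 had a sham operation. Day 7 mice carried Krt20T2A-CE; INTACTnuGFP/+ and received tamoxifen (0.05 mg/g) and a bilateral renal clamp of 18 min. In these mice a recombinase expressed from the Krt20 gene switches on a green fluorescent nuclear envelope protein, permanently, in cells that express Krt20 when tamoxifen is given and in their descendants. Serum creatinine of day 7 mice 1 and 2 was 0.255 and 0.133 mg/dL at 48 h and 0.177 and 0.149 mg/dL at harvest, and it was 0.100 and 0.122 mg/dL at harvest in controls 2 and 4. No label gives a control mouse of the Krt20 line. Genotype, inducing agent, the population sorted and injury therefore changed together, and their shares in any difference below cannot be told apart.

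The proximal tubule reabsorbs most of the filtered sodium, phosphate, glucose, amino acids and protein, and it has a high demand for oxygen, so that it suffers first when renal blood flow stops. Surviving tubule cells flatten, lose transporters, express injury genes such as Havcr1 (kidney injury molecule 1) and divide. Most then regain their former state, whereas some keep an inflammatory state marked by Vcam1. Krt20 encodes a keratin that is induced in injured tubules.

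The 4 control libraries held 2419 to 4564 nuclei and 1833617 to 9622439 UMIs, and the day 7 libraries held 3847 and 3587 nuclei and 14641038 and 8718254 UMIs. The median nucleus had 1722, 1771, 1938 and 668 UMIs in controls 1 to 4 and 3172 and 1963 UMIs at day 7. Control 4 stood apart, with 16.5% of its nuclei at 1000 UMIs or more against 83.0% to 90.7% in the other 5 libraries. Cell barcodes began with the starts of the v2 set in all 4 controls and in day 28 mouse 1, and with those of the v3 set in both day 7 mice and day 28 mice 2 and 3. Mitochondrially encoded RNA made up between 0.0818% and 0.1997% of the UMIs of each control, but 0.00863% and 0.0118% in the day 7 pair, 0.0715% in day 28 mouse 1 and at most 0.00979% in day 28 mice 2 and 3, and so went with the barcode set. The nuclear RNA Malat1 took 19.8% to 24.0% of control UMIs and 10.3% and 6.74% of day 7 UMIs. Any 2 of the 6 libraries shared at most 26 barcodes (0.724% of the smaller library), and the day 7 pair shared 3. In every library the fewest nuclei with a UMI of a gene, above none, was 3, so a 0 below stands for fewer than 3 nuclei with a UMI and not for absence.

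Of 15275 genes that passed a filter on low counts, 6659 (43.6%) differed: 3427 (22.4%) rose and 3232 (21.2%) fell at day 7, at a Benjamini-Hochberg adjusted p under 0.05 in edgeR's quasi-likelihood test. Among them 2589 (16.9%) rose and 2846 (18.6%) fell by more than 2-fold. Both day 7 libraries lay above all 4 controls for 33.7% of tested genes and below them for 30% of tested genes, called or not. The median log2 difference of all tested genes was 0.01. With the barcode set as a term in the fit, 585 genes (3.83%) were called higher and 504 (3.3%) lower, and that term rests on day 28 mouse 1, the single injured library with v2 barcodes. Creatinine of that mouse at 48 h was 0.488 mg/dL, against 0.208 and 0.228 mg/dL in day 28 mice 2 and 3. Its library held 2409411 UMIs, and 65.5% of its nuclei had 1000 UMIs or more. Barcode set, creatinine and depth of that mouse cannot be told apart in this term. Day 7 values with this term are given below as values of the barcode-set fit. At an unadjusted p under 0.05 in edgeR's test, 8038 of the 15275 genes differed in either direction, and 3654 in the barcode-set fit. Every list count below is to be read beside these values over all tested genes. With 1 day 7 mouse left out, 1818 genes rose and 1884 fell without mouse 1, and 1766 rose and 1737 fell without mouse 2.

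Krt20, the gene that drives the recombinase in the injured line (chr11:99428403-99438150, mm10, minus strand), comes first because the sort of the injured line selected for its activity, so that its level is a check of the labels and no finding. It stood at 5.21, 0.656, 0.802 and 2.12 counts per 1000000 (CPM, scaled between libraries) in controls 1 to 4 and at 22.9 and 15.8 CPM in day 7 mice 1 and 2. Both day 7 libraries lay above every control (log2 difference 3.09 ± 0.57 (SE), adjusted p = 0.00124). In the barcode-set fit the log2 difference was 3.09 (adjusted p = 0.0684), so that its size held and its call did not. Krt20 of day 28 mice 1 to 3 stood at 16.8, 21.0 and 12.2 CPM, above every control. Where 2 sets of CPM follow a gene below, the first is controls 1 to 4 and the second is day 7 mice 1 and 2.

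The 250 bases before the transcription start of Krt20 and of 2 further genes are shown because the reporter depends on the first and because Havcr1 and Slc34a1 mark the injured and the uninjured proximal tubule in the values that follow. They were taken from RefSeq (GRCm38.p6), Krt20 from chr11:99438154-99438403 on the minus strand, Havcr1 from chr11:46739973-46740222 on the plus strand, for the first of 3 listed starts, and Slc34a1 from chr13:55399398-55399647 on the plus strand. Capitals mark TATAAA, the core of the TATA box.
Krt20: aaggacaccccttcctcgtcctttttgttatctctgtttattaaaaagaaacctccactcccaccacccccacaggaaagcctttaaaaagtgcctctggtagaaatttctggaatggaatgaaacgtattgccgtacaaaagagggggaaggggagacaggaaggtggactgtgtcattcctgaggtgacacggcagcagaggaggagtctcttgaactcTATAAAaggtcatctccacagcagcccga
Havcr1: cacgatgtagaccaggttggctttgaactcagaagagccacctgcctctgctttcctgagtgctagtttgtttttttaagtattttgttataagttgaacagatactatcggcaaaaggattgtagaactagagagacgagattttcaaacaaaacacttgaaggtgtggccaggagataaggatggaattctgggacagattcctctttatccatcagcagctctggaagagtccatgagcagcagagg
Slc34a1: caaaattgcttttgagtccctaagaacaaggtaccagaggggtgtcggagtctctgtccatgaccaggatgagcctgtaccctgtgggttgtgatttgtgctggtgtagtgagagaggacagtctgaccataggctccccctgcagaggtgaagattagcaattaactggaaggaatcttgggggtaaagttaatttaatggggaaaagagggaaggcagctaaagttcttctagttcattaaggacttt
The Krt20 window held TATAAA, and the other 2 windows held none of the motifs searched. These were TATAAA, the AP-1 motif TGANTCA and the NF-kB motif, on both strands. RefSeq windows were found for 11254 tested genes. TATAAA was in 8.60% of these genes, in 8.43% of those that rose and in 10.1% of those that fell. TGANTCA was in 5.76% of tested genes, in 6.57% of those that rose and in 5.67% of those that fell. The NF-kB motif was in 6.05%, 7.15% and 5.71% of the same groups. A match in the window is a description of its letters.

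Havcr1 (chr11:46735080-46779578, plus strand), a phosphatidylserine receptor with which tubule cells take up dying neighbours, stood at 7.59, 7.00, 2.14 and 4.78 CPM in controls and 1008 and 804 CPM at day 7 (log2 difference 7.40 ± 0.42 (SE), adjusted p = 5.92e-07). The group means were 5.38 ± 2.47 CPM in controls (SD, n = 4) and 906 ± 144 CPM at day 7 (SD, n = 2). Vcam1, an adhesion molecule for leukocytes, stood at 9.52, 6.56, 2.94 and 9.55 CPM in controls and 242 and 208 CPM at day 7 (log2 difference 5.03 ± 0.38 (SE), adjusted p = 4.55e-06). Neither gene had a control library anywhere near a day 7 library. Spp1, the secreted phosphoprotein osteopontin, was already abundant in controls, at 209, 117, 103 and 81.2 CPM, and reached 649.6 and 774 CPM (log2 difference 2.48 ± 0.34 (SE), adjusted p = 0.000206).

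Lcn2, an iron-carrier protein that is widely used as an injury marker, was low in every library, at 0.595, 4.37, 0.668 and 1.59 CPM in controls and 4.74 and 3.29 CPM at day 7. The groups overlapped through control 2 and the difference was not called (log2 difference 1.21 ± 0.71 (SE), adjusted p = 0.18). It was called without control 2 (adjusted p = 0.0222), with an offset for gene span (adjusted p = 0.0153) and without nuclei that held 2 or more UMIs of other cells' markers (adjusted p = 0.0253).

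Slc34a1 (chr13:55398187-55415592), the main sodium-phosphate carrier of the proximal tubule, stood at 3787, 4713, 4705 and 4514 CPM in controls and 493 and 487 CPM at day 7 (log2 difference -3.18 ± 0.37 (SE), adjusted p = 6.97e-05). Lrp2, the protein uptake receptor megalin, stood at 1304, 1549, 2113 and 1379.8 CPM and 692 and 576 CPM (log2 difference -1.32 ± 0.29 (SE), adjusted p = 0.00341). The barcode-set fit gave -2.71 (adjusted p = 0.0168) for Slc34a1 and -1.05 (adjusted p = 0.207) for Lrp2. Hnf4a, a transcription factor of the differentiated proximal tubule, stood at 174, 218, 233 and 223 CPM in controls and 150.2 and 159 CPM at day 7. Both day 7 values lay below all controls, and the difference did not pass the test (log2 difference -0.46 ± 0.25 (SE), adjusted p = 0.152). It passed with an offset for gene span in each library (log2 difference -0.92, adjusted p = 0.00702), and the barcode-set fit gave -1.09 (adjusted p = 0.0927). Hnf4a overlaps the tested antisense gene Hnf4aos, and whether the counting used strand is not given in the sources used here. The sums mix all nuclei of a library, so fewer cells of a type and less RNA per cell cannot be told apart.

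**Figure D1:**
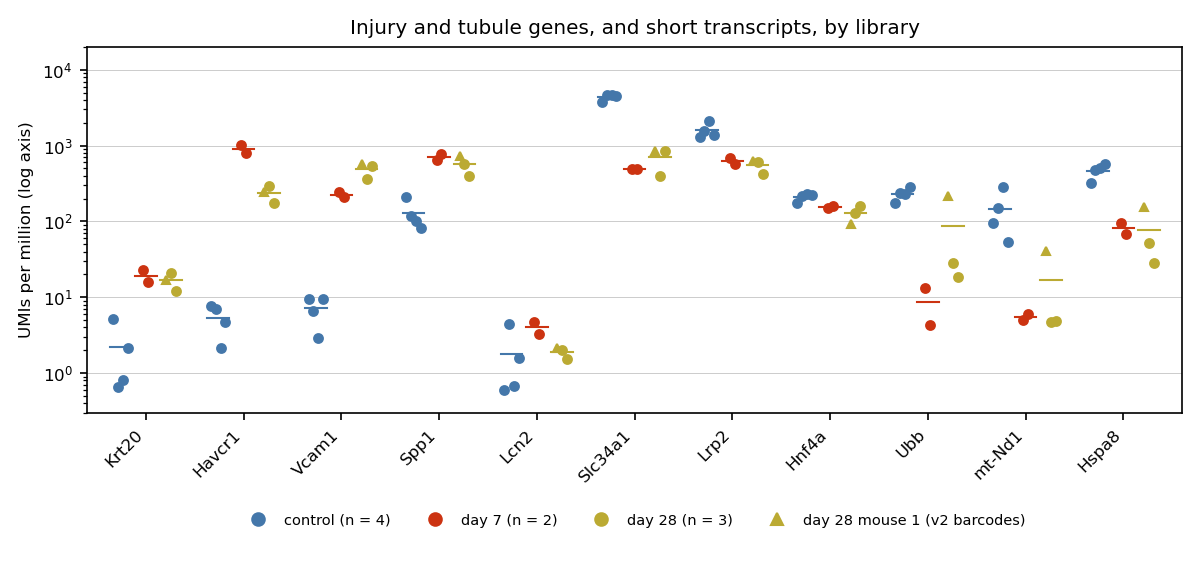
UMIs per 1000000, scaled between libraries, on a log axis for 11 genes in 4 control, 2 day 7 and 3 day 28 libraries; each point is 1 mouse, lines are group means and the triangle is day 28 mouse 1. Havcr1 and Vcam1 are higher at day 7 and Slc34a1 is lower, while Ubb, mt-Nd1 and Hspa8 of day 28 mouse 1 lie above those of the other 2 day 28 mice.

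The largest rises were in genes that were nearly silent in control nephrons. Cd44 (chr2:102811141-102901665), the receptor for the matrix sugar hyaluronan, led them with 2.98, 2.84, 0.936 and 2.65 CPM in controls and 560.1 and 533 CPM at day 7 (log2 difference 7.91 ± 0.38 (SE), adjusted p = 2.26e-07). Havcr1 followed. Sorcs1, a sorting receptor of the VPS10 family, stood at 4.61, 9.62, 2.81 and 4.78 CPM and 816 and 775 CPM (log2 difference 7.21 ± 0.40 (SE), adjusted p = 5.89e-07). The Sorcs1 locus overlaps the tested gene Gm26629 on the other strand. Kcnh8, a voltage-gated potassium channel, stood at 2.23, 1.53, 1.87 and 3.71 CPM and 393 and 240.5 CPM (log2 difference 7.20 ± 0.32 (SE), adjusted p = 2.18e-07). In all of these the lowest day 7 library was many times the highest control. The rule that named the largest rises required no overlap between the groups.

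Transcription factors were also among the genes with the largest rises. Sox9, a factor of nephron progenitors and regenerating tubules, was at 0.446, 0, 0.401 and 0 CPM in controls, 0 in controls 2 and 4, and at 43.7 and 44.3 CPM at day 7 (log2 difference 7.19 ± 0.41 (SE), adjusted p = 5.92e-07). Runx1, a factor best known from blood formation, stood at 4.76, 1.31, 1.74 and 3.18 CPM and 352 and 236 CPM (log2 difference 6.73 ± 0.39 (SE), adjusted p = 5.92e-07). Npas3, a factor of the bHLH-PAS family, stood at 2.68, 0.875, 2.14 and 3.18 CPM and 236 and 209.5 CPM (log2 difference 6.70 ± 0.35 (SE), adjusted p = 5.41e-07). The day 7 libraries of all 3 factors stood far above the highest control. Other genes were Gm5833 (log2 difference 7.26), Ptchd1, a Patched-domain membrane protein (7.07), Traf1, an adaptor of TNF receptor signalling (7.00), and Slco5a1, an organic anion transporter family member (6.59). Each of these 4 was listed at 0 in 3 of 4 controls and rose at an adjusted p of 5.78e-05, 1.85e-05, 1.04e-05 and 6.16e-05, in that order. All of the rises named here kept their call in the barcode-set fit.

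The largest falls took in genes of secreted and metabolic proteins and several noncoding RNAs. Gm48072 (chr10:63072052-63075060), an antisense RNA within the Pbld1 locus, stood at 6.55, 16.4, 10.2 and 19.6 CPM in controls and at 0 in both day 7 libraries, at least 50.6-fold lower with 3 UMIs per library as the floor. Wfdc8, a protease inhibitor domain gene, stood at 6.25, 12.2, 5.61 and 20.7 CPM and at 0 in both day 7 libraries, at least 43.0-fold lower by the same floor. Both falls passed the test (adjusted p = 0.00012 and 0.00155). Apoc3, an apolipoprotein of triglyceride-rich particles, stood at 25.9, 56.0, 34.4 and 107 CPM and 0 and 0.424 CPM (log2 difference -8.18 ± 0.99 (SE), adjusted p = 9.19e-05). Hdc, which makes histamine from histidine, stood at 62.4, 130.4, 59.8 and 76.4 CPM and 1.08 and 0 CPM (log2 difference -7.01 ± 0.77 (SE), adjusted p = 4.75e-05). Mas1, a receptor of the renin-angiotensin system, stood at 25.1, 20.3, 13.4 and 37.1 CPM and 0 and 0.424 CPM (log2 difference -6.95 ± 0.81 (SE), adjusted p = 7.00e-05). The rule that named the largest falls also required no overlap between the groups.

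Cyp4a14, a fatty acid hydroxylase, varied widely among controls, at 38.2, 36.7, 361 and 308 CPM, and was at 1.22 and 2.65 CPM at day 7 (log2 difference -6.62 ± 1.33 (SE), adjusted p = 0.00205). Rarres2, the chemoattractant chemerin, was at 17.9, 54.5, 13.1 and 17.0 CPM and 0.338 and 0 CPM (log2 difference -6.89 ± 1.15 (SE), adjusted p = 0.000633). Smcp, a sperm mitochondrial capsule protein, was even across controls, at 22.0, 22.3, 23.7 and 21.8 CPM, and at 0 and 0.530 CPM at day 7 (log2 difference -6.57 ± 1.16 (SE), adjusted p = 0.000904). In day 28 mice 1 to 3 Smcp stood at 2.50, 0 and 0 CPM, and in the barcode-set fit its difference was 0.62 (adjusted p = 0.68), the opposite sign. The other 4 falls were the noncoding genes Gm11728 (log2 difference -6.89), Gm16193 (-6.75), Gm28156 (-6.56) and Gm47003 (-6.53). Of the 12 falls, Gm48072, Hdc, Mas1 and Gm16193 kept their call in the barcode-set fit. The lost calls kept their sign except for Smcp, at -12.23 (adjusted p = 0.0781) for Apoc3, -5.60 (adjusted p = 0.149) for Cyp4a14, -4.15 (adjusted p = 0.108) for Rarres2, -3.19 (adjusted p = 0.381) for Gm11728, -11.26 (adjusted p = 0.0501) for Gm28156 and -5.86 (adjusted p = 0.0969) for Gm47003. Wfdc8, whose fitted value against day 7 libraries at 0 is no bound, had an adjusted p of 0.0875 in that fit. The overlap of Mas1 with Airn, of Rarres2 with Lrrc61, of Gm16193 with Mtus1 and of Gm47003 with Aaed1, all on the opposite strand and all tested, leaves the source of their reads uncertain.

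**Figure D2:**
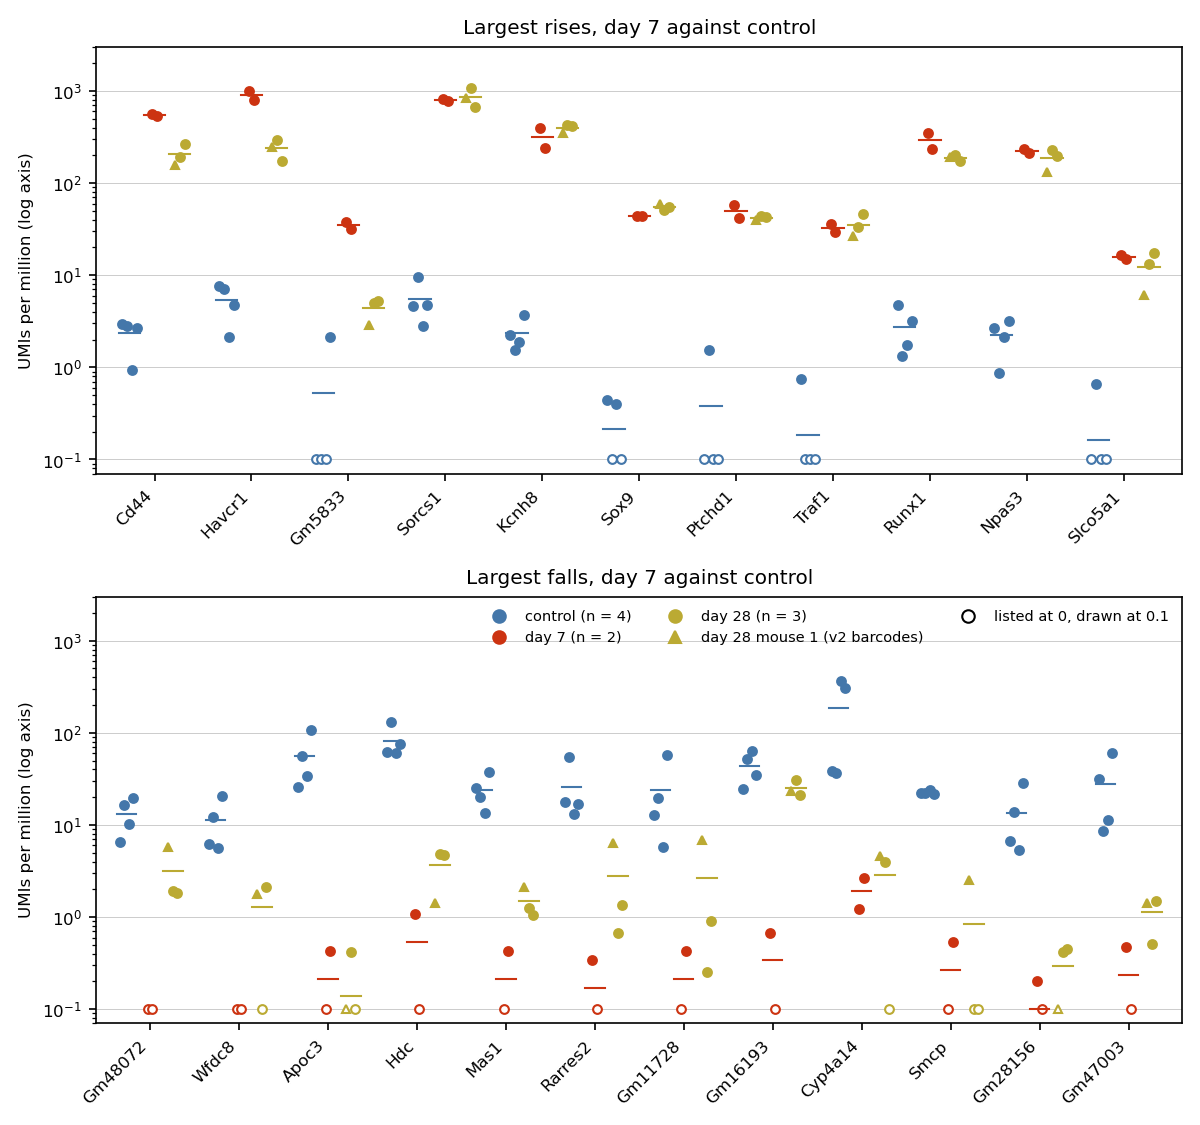
UMIs per 1000000 on a log axis for 11 of the 12 genes with the largest rise (upper panel) and the 12 with the largest fall (lower panel); points are mice, lines are group means, open points at 0.1 are libraries listed at 0. The genes were chosen for having no overlap between day 7 and control libraries. Gm16193 of all 3 day 28 mice lies near the controls.

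Genes of tubule injury were tested 30 in all, and 15 rose and 2 fell, with a median log2 difference of 1.42. Besides those above, Anxa3 (5.00), Cp, the copper protein ceruloplasmin (4.93), the kidney cadherin Cdh6 (4.22), Myof (3.87), Anxa2 (2.77) and the progenitor antigen Prom1 (1.89) rose in log2. Keratins did not move together. Krt8 rose (0.85), Krt7 fell (-1.31), and Krt18 (0.88, adjusted p = 0.318) and Krt19 (-1.50, adjusted p = 0.511) were not called. Cryab, a small heat shock protein, fell (-1.73). The barcode-set fit called 10 members higher and 0 lower (16 and 0 at an unadjusted p under 0.05), with a median of 1.61. With either day 7 mouse left out the list had 13 higher and 0 lower.

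Proximal tubule transporters went the other way, with 0 of 36 higher, 28 lower and a median log2 difference of -1.85 in edgeR's test. At an unadjusted p under 0.05, 0 were higher and 30 lower, and DESeq2 called 0 higher and 30 lower. Slc6a19, the main neutral amino acid carrier, stood at 278, 402, 291 and 227 CPM in controls and 10.7 and 15.7 CPM at day 7 (log2 difference -4.51 ± 0.47 (SE), adjusted p = 3.35e-05). Slc5a12, a sodium-lactate carrier, stood at 1695, 1962, 3264 and 676 CPM and 161 and 147 CPM (log2 difference -3.62 ± 0.54 (SE), adjusted p = 0.000324). Slc7a13, a cystine and glutamate carrier of the last, straight segment, stood at 842, 872, 725 and 743 CPM and 71.8 and 72.1 CPM (log2 difference -3.47 ± 0.56 (SE), adjusted p = 0.000518). The 3 carriers were below every control in both day 7 mice. Slc22a7, an organic anion carrier, stood at 61.9, 21.4, 24.7 and 52.5 CPM and 1.83 and 3.71 CPM (log2 difference -3.87 ± 0.99 (SE), adjusted p = 0.00774), and at 16.1, 1.68 and 0.604 CPM in day 28 mice 1 to 3. In the barcode-set fit Slc22a7 differed by -0.20 (adjusted p = 0.937) and Slc7a13 by -1.57 (adjusted p = 0.0503), while Slc6a19 kept its call at -4.16 (adjusted p = 0.00691) and Slc5a12 at -3.89 (adjusted p = 0.0225). Slc22a7 was also not called without day 7 mouse 1. That fit called 0 members higher and 10 lower (0 and 22 at an unadjusted p under 0.05), with a median of -1.49. Carriers of phosphate (Slc34a3, -4.10), organic anions (Slc22a6, -3.42, and Slc22a8, -2.88), urate (Slc22a12, -3.33), fructose (Slc2a5, -2.80), glucose (Slc5a2, -2.55) and water (Aqp1, -2.72) fell in log2.

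Actin filaments and their crosslinkers give a flattened, spreading cell its shape. Of 41 actin genes, 19 rose and 2 fell (median 0.60). Actn1, an actin crosslinker, stood at 20.8, 11.6, 8.42 and 16.5 CPM in controls and 388 and 256 CPM at day 7 (log2 difference 4.50 ± 0.36 (SE), adjusted p = 6.97e-06). Cald1, an actin-myosin regulator, stood at 48.4, 19.9, 20.9 and 20.2 CPM and 276 and 194 CPM (log2 difference 3.08 ± 0.37 (SE), adjusted p = 8.12e-05). Flna, filamin A, stood at 6.70, 4.59, 2.01 and 9.02 CPM and 39.9 and 35.2 CPM (log2 difference 2.86 ± 0.38 (SE), adjusted p = 0.000169). The 3 genes kept their call in the barcode-set fit, which called 12 members higher and 0 lower (17 and 3 at an unadjusted p under 0.05), with a median of 0.89. Tpm1 (2.82), Tpm4 (2.39), Myh9 (1.79) and Vcl (1.38) also rose, and Tmsb4x, which binds actin monomers, fell (-1.93). Diaph3, a formin that extends actin filaments and acts in cell division, stood at 11.5, 6.12, 6.02 and 13.3 CPM in controls, 69.9 and 67.6 CPM at day 7 and 11.4, 10.6 and 11.6 CPM at day 28 (log2 difference 2.95 ± 0.30 (SE), adjusted p = 3.20e-05). Leaving out 1 day 7 mouse left 16 to 17 higher and 0 lower of the actin list.

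The Hippo pathway restrains the coactivators YAP and TAZ, which with TEAD factors switch on genes of spreading and growing cells. Of 24 genes of this list, 15 rose and 0 fell (median 1.23). In edgeR's test no gene of the list was lower at an unadjusted p under 0.05 (16 were higher), and DESeq2 called 15 higher and 0 lower. Axl, a receptor kinase, stood at 1.49, 2.84, 1.60 and 4.25 CPM in controls and 37.3 and 33.3 CPM at day 7 (log2 difference 3.96 ± 0.42 (SE), adjusted p = 3.70e-05). Ankrd1 stood at 7.14, 3.94, 4.41 and 11.7 CPM and 107 and 49.3 CPM (log2 difference 3.63 ± 0.55 (SE), adjusted p = 0.000367). Ptpn14, a phosphatase that binds YAP, stood at 48.8, 10.5, 12.6 and 26.0 CPM and 246 and 224 CPM (log2 difference 3.26 ± 0.52 (SE), adjusted p = 0.000479). Tead4 itself stood at 4.02, 1.75, 0.802 and 2.12 CPM and 13.6 and 17.7 CPM (log2 difference 2.83 ± 0.47 (SE), adjusted p = 0.000612). Yap1 (1.37), Tead1 (1.33), Ctgf (2.41) and Cyr61 (1.41) rose as well, whereas Wwtr1, which encodes TAZ, differed by -0.0026 (adjusted p = 0.994). The barcode-set fit called 4 members higher and 0 lower (10 and 1 at an unadjusted p under 0.05), with a median of 0.87. Axl and Ankrd1 kept their call in it, and neither Ptpn14 nor Tead4.

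Among 35 genes of cell junctions 15 rose and 5 fell (median 0.66). Cdh3, P-cadherin, stood at 9.08, 4.59, 3.61 and 5.31 CPM in controls and 78.4 and 59.1 CPM at day 7 (log2 difference 3.59 ± 0.32 (SE), adjusted p = 1.31e-05). Cdh2, N-cadherin, stood at 16.1, 12.9, 11.6 and 5.31 CPM and 117 and 75.1 CPM (log2 difference 3.00 ± 0.36 (SE), adjusted p = 8.89e-05). Cldn1, a sealing claudin, stood at 9.97, 14.2, 9.89 and 10.1 CPM and 82.6 and 47.4 CPM (log2 difference 2.56 ± 0.27 (SE), adjusted p = 3.53e-05). All 3 kept their call in the barcode-set fit (5 members higher and 1 lower, with a median of 0.46). Desmosome genes Dsp (1.84), Dsg2 (2.39) and Pkp2 (1.17) rose too. Cldn2, the cation pore of the proximal tubule, fell (-1.52), as did Cldn8 (-3.91) and Cldn19 (-1.83) of the distal nephron. Ctnnd1, p120 catenin, stood at 18.5, 24.1, 21.5 and 27.1 CPM and 3.92 and 4.35 CPM (log2 difference -2.45 ± 0.39 (SE), adjusted p = 0.000518), and differed by -1.25 (adjusted p = 0.122) in the barcode-set fit. Without 1 day 7 mouse the list had 7 to 9 higher and 3 to 4 lower.

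Axon guidance molecules, which also steer migrating epithelial cells, rose for 24 of 50 genes and fell for 4 (median 0.73). Nrp2, a semaphorin coreceptor, stood at 7.29, 2.84, 2.94 and 5.84 CPM in controls and 78.3 and 78.7 CPM at day 7 (log2 difference 4.08 ± 0.36 (SE), adjusted p = 1.15e-05). Its ligand Sema3c was abundant throughout, at 128, 115, 199 and 129 CPM and 1209 and 1256 CPM (log2 difference 3.11 ± 0.25 (SE), adjusted p = 6.65e-06). Efnb2, a membrane-bound ephrin, stood at 9.08, 4.37, 3.61 and 4.25 CPM and 65.3 and 56.5 CPM (log2 difference 3.47 ± 0.35 (SE), adjusted p = 2.76e-05). Both day 7 libraries lay above all controls for these 3 genes. Receptors that rose included Epha7 (3.00), Plxna2 (2.69) and Plxnd1 (2.52). Sema7a was low, at 0.446, 0, 0.668 and 2.12 CPM and 6.90 and 7.96 CPM (log2 difference 3.54 ± 0.88 (SE), adjusted p = 0.00673). It was not called without day 7 mouse 2, and was at 0, 0.925 and 2.42 CPM at day 28, where mouse 1 had 0. The barcode-set fit called 4 members higher and 1 lower, with a median of 0.92. Sema7a differed by -3.005 (adjusted p = 0.737) in it. Plxnc1 (-2.70) and Sema4g (-2.40) fell. Leaving out 1 day 7 mouse left 16 to 18 higher and 2 lower.

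Cell death and inflammasome genes had 13 higher and 5 lower of 33 (median 0.63). Casp4, encoding caspase-11, which senses bacterial lipopolysaccharide, stood at 1.93, 1.31, 0.535 and 1.59 CPM in controls and 41.1 and 51.1 CPM at day 7 (log2 difference 5.15 ± 0.37 (SE), adjusted p = 3.43e-06). Gsdmd, the pore protein that caspase-11 cleaves in pyroptosis, stood at 0.893, 0, 0.535 and 0 CPM and 12.5 and 9.65 CPM (log2 difference 4.53 ± 0.59 (SE), adjusted p = 0.000139). Mlkl, the pore protein of necroptosis, stood at 0.595, 1.31, 1.07 and 1.59 CPM and 17.1 and 24.9 CPM (log2 difference 4.30 ± 0.39 (SE), adjusted p = 1.32e-05). Tnfrsf1b, TNF receptor 2, stood at 0.744, 0, 0.535 and 0 CPM and 12.3 and 10.4 CPM (log2 difference 4.71 ± 0.60 (SE), adjusted p = 0.000125). These 4 kept their call in the barcode-set fit, which called 7 members higher and 0 lower (9 and 4 at an unadjusted p under 0.05), with a median of 0.45. Birc3 (4.16), an inhibitor of apoptosis, and Acsl4 (1.77), which feeds lipids to ferroptosis, also rose. Gpx4, which protects from ferroptosis (-1.82), Bax (-1.84), Pycard (-1.62) and Gsdme (-2.03) fell. Macrophages also express several of these genes. The summed macrophage and monocyte markers were 37.1, 48.6, 18.2 and 49.1 UMIs per 1000000 in controls and 67.8 and 58.0 at day 7. Without nuclei that held 2 or more UMIs of other cells' markers the list had 13 higher and 4 lower, with a median of 0.65. With either day 7 mouse left out the list had 9 higher and 2 to 3 lower.

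Cytokine receptors and the JAK-STAT pathway had 16 higher and 5 lower of 34 (median 0.80). Osmr, the oncostatin M receptor, stood at 1.64, 2.62, 1.87 and 0 CPM in controls and 76.1 and 62.0 CPM at day 7 (log2 difference 5.29 ± 0.39 (SE), adjusted p = 4.44e-06). Il6ra, the interleukin 6 receptor, stood at 1.34, 0.875, 1.07 and 0 CPM and 7.85 and 7.21 CPM (log2 difference 2.94 ± 0.49 (SE), adjusted p = 0.0006). Lif, a cytokine of the same family, stood at 0.595, 1.31, 0 and 1.59 CPM and 4.46 and 5.09 CPM (log2 difference 2.74 ± 0.76 (SE), adjusted p = 0.0119). Receptor chain Il6st (0.88), kinases Jak2 (1.54) and Jak3 (2.12) and factor Stat3 (0.95) rose with them. Socs3, the feedback inhibitor, stood at 0.893, 0.875, 0 and 0 CPM and 5.61 and 4.46 CPM (log2 difference 3.33 ± 0.89 (SE), adjusted p = 0.0101). Without day 7 mouse 1 neither Socs3 nor Lif was called, and without day 7 mouse 2 Lif was not called (adjusted p of the calls lost in these 2 fits, 0.0556 to 0.217 and 0.052 to 0.253 over all named genes). Il33, an alarmin, fell (-2.69), as did Lifr (-0.75). The barcode-set fit called 3 members higher and 1 lower, with a median of 0.27, and without 1 day 7 mouse the list had 7 to 11 higher and 1 to 2 lower.

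Complement, coagulation and fibrinolysis genes had 12 higher and 3 lower of 26 (median 0.90). C3, the central complement protein, stood at 6.10, 8.09, 2.41 and 5.84 CPM in controls and 62.2 and 82.8 CPM at day 7 (log2 difference 3.72 ± 0.38 (SE), adjusted p = 3.25e-05). Plat, tissue plasminogen activator, stood at 11.3, 4.16, 2.81 and 4.25 CPM and 111 and 76.3 CPM (log2 difference 4.01 ± 0.54 (SE), adjusted p = 0.000173). Plaur, the urokinase receptor, stood at 5.06, 2.19, 1.07 and 8.49 CPM and 45.6 and 26.9 CPM (log2 difference 3.30 ± 0.53 (SE), adjusted p = 0.000507). Masp1, a protease of the lectin pathway, stood at 1.19, 0, 0.802 and 2.12 CPM and 12.2 and 8.59 CPM (log2 difference 3.53 ± 0.60 (SE), adjusted p = 0.000712), and its locus overlaps Rtp4 on the other strand. Cfb, a factor of the alternative pathway, fell (-2.47), and so did F13b (-2.85). In the barcode-set fit C3 and Plaur kept their call, Plat and Masp1 did not (2.86 (adjusted p = 0.0619) and 2.42 (adjusted p = 0.0979)), and it called 4 members higher and 0 lower (11 and 1 at an unadjusted p under 0.05), with a median of 0.82. With either day 7 mouse left out there were 7 higher and 1 lower.

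Growth factors and receptors split, 7 higher and 9 lower of 31 (median 0.08), a share of higher genes at the background of all genes. Vegfa, the endothelial growth factor of tubule cells, stood at 287, 266, 226 and 274 CPM in controls and 41.3 and 33.4 CPM at day 7 (log2 difference -2.81 ± 0.24 (SE), adjusted p = 1.08e-05), and kept its call in the barcode-set fit at -2.81 (adjusted p = 0.00187). Angpt1 (-1.52) and Fgf9 (-0.94) also fell, and Met, the receptor of hepatocyte growth factor (1.47), rose. Fgf7 was at 0, 0, 0.401 and 1.59 CPM and 2.91 and 3.29 CPM (log2 difference 3.20 ± 1.14 (SE), adjusted p = 0.0382), and Hgf at 0.744, 0.875, 0 and 0 CPM and 3.38 and 3.39 CPM (log2 difference 2.90 ± 0.86 (SE), adjusted p = 0.0172). Both are chiefly products of stroma, whose summed markers were 46.1, 34.9, 26.3 and 23.5 UMIs per 1000000 in controls and 106 and 118 at day 7. Without nuclei that held 2 or more UMIs of other cells' markers, Fgf7 differed by 3.11 (adjusted p = 0.0381) and Hgf did not pass the filter on low counts. The list then had 7 higher and 11 lower of 29 tested (median -1.18). Neither Fgf7 nor Hgf was called without either day 7 mouse. Fgf7 was also not called without control 1, 2 or 3 (adjusted p = 0.0772 without control 1), in DESeq2 or with the length offset, and differed by -3.72 (adjusted p = 0.686) in the barcode-set fit. Fgf7 overlaps Fam227b on the other strand. Leaving out 1 day 7 mouse left 4 to 5 higher and 4 to 5 lower of the list.

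Of 25 genes of the BMP pathway, which in the kidney opposes fibrosis, 10 rose and 5 fell (median 0.52). The shares were 40% higher and 20% lower, beside 22.4% and 21.2% of all tested genes. Bmp1, a protease that matures procollagen and no BMP ligand, stood at 2.83, 2.41, 0.668 and 2.65 CPM in controls and 31.1 and 36.8 CPM at day 7 (log2 difference 4.06 ± 0.41 (SE), adjusted p = 2.58e-05). Bmper, an extracellular BMP binder, stood at 0.893, 1.31, 1.47 and 2.12 CPM and 12.6 and 10.7 CPM (log2 difference 3.09 ± 0.41 (SE), adjusted p = 0.00016). Among pathway targets Id3 stood at 30.1, 106, 65.1 and 70.6 CPM and 6.90 and 3.29 CPM (log2 difference -3.70 ± 0.79 (SE), adjusted p = 0.00279), and Id1 (-1.72) and Id2 (-1.85) fell with it. The ligand Bmp7 fell (-1.56). Id3 of day 28 mice 1 to 3 stood at 78.9, 19.1 and 11.9 CPM, mouse 1 within the control range, and the barcode-set fit gave -1.36 (adjusted p = 0.307). Smad9 was at 0.893, 1.09, 0.802 and 0 CPM and 5.82 and 5.20 CPM (log2 difference 2.77 ± 0.79 (SE), adjusted p = 0.0136). It was not called without either day 7 mouse and differed by -4.75 (adjusted p = 0.393) in the barcode-set fit, where day 28 mouse 1 had 0. That fit called 3 members higher and 1 lower, with a median of 0.19. With either day 7 mouse left out the list had 6 to 7 higher and 2 to 3 lower.

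Of 29 Wnt pathway genes 8 rose and 4 fell (median 0.35), or 27.6% higher and 13.8% lower, beside 22.4% and 21.2% of all tested genes. Wnt5a stood at 7.74, 3.06, 3.61 and 6.37 CPM in controls and 23.5 and 25.9 CPM at day 7 (log2 difference 2.27 ± 0.36 (SE), adjusted p = 0.000472). Lrp5, a coreceptor of Wnt ligands, stood at 8.18, 9.19, 8.02 and 16.5 CPM and 45.1 and 42.4 CPM (log2 difference 2.13 ± 0.31 (SE), adjusted p = 0.000287). Fzd1, a Wnt receptor, stood at 8.78, 26.5, 19.5 and 16.5 CPM and 3.79 and 3.71 CPM (log2 difference -2.24 ± 0.43 (SE), adjusted p = 0.00161). Dkk2, a secreted antagonist, differed between the day 7 mice, at 209.5 and 87.4 CPM against 67.7, 50.1, 30.9 and 31.3 CPM in controls (log2 difference 1.71 ± 0.38 (SE), adjusted p = 0.00341), and was not called without day 7 mouse 1. The barcode-set fit called 0 members higher and 0 lower (4 and 3 at an unadjusted p under 0.05), with a median of -0.07, and without 1 day 7 mouse the list had 4 higher and 2 to 3 lower.

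Matrix proteases and hyaluronan genes had 13 higher and 7 lower of 32 (median 1.07). The shares were 40.6% higher and 21.9% lower, beside 22.4% and 21.2% of all tested genes. Adamts5, an aggrecanase, stood at 2.38, 1.75, 2.81 and 0 CPM in controls and 119.9 and 76.6 CPM at day 7 (log2 difference 5.57 ± 0.42 (SE), adjusted p = 4.84e-06). Adamts1 stood at 20.5, 33.7, 30.7 and 45.1 CPM and 299.7 and 208 CPM (log2 difference 2.99 ± 0.29 (SE), adjusted p = 2.21e-05). Mmp14, a membrane collagenase, stood at 1.34, 1.31, 0.936 and 0 CPM and 7.98 and 7.96 CPM (log2 difference 2.93 ± 0.45 (SE), adjusted p = 0.0004). The 3 proteases kept their call in the barcode-set fit (3 members higher and 3 lower, with a median of 0.04). The brush border peptidases Dpp4 (-1.34), Anpep (-1.28) and Mep1b (-1.62) fell, and Mme, neprilysin, rose (2.38). Hmmr, a hyaluronan receptor that acts on the mitotic spindle, was at 1.19, 0, 0.936 and 1.59 CPM in controls, 4.74 and 6.58 CPM at day 7 and 0, 0.252 and 0.907 CPM at day 28 (log2 difference 2.67 ± 0.81 (SE), adjusted p = 0.0188). It was not called without either day 7 mouse, and differed by -2.33 (adjusted p = 0.798) in the barcode-set fit. Leaving out 1 day 7 mouse left 10 higher and 2 to 6 lower. Without nuclei that held other cells' markers the list had 12 higher and 6 lower of 31 tested (median 0.70).

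Genes of retinoid and steroid handling had 6 higher and 8 lower of 28 (median -0.37), or 21.4% higher and 28.6% lower, beside 22.4% and 21.2% of all tested genes. Stra6, the cellular receptor for the retinol carrier, stood at 0, 1.31, 0.802 and 0 CPM in controls and 35.6 and 32.6 CPM at day 7 (log2 difference 5.83 ± 0.61 (SE), adjusted p = 3.61e-05). Aldh1a2, which makes retinoic acid, stood at 2.08, 0.875, 1.47 and 0 CPM and 32.1 and 21.3 CPM (log2 difference 4.32 ± 0.45 (SE), adjusted p = 3.60e-05). Rdh10 (1.49), which oxidises retinol, rose as well, and both day 7 libraries lay above every control for Stra6 and Aldh1a2. Hsd3b2, a steroid dehydrogenase, stood at 1088, 1086, 1299 and 469 CPM and 57.9 and 45.4 CPM (log2 difference -4.25 ± 0.67 (SE), adjusted p = 0.00046). Sgk1, a kinase induced by corticosteroids, stood at 53.0, 17.3, 106 and 87.6 CPM and 3.99 and 4.03 CPM (log2 difference -4.03 ± 0.76 (SE), adjusted p = 0.00133), and Tsc22d3, another corticosteroid target, fell (-2.34). Stra6 and Aldh1a2 kept their call in the barcode-set fit, and Hsd3b2 (-2.27 (adjusted p = 0.0507)) and Sgk1 (-2.59 (adjusted p = 0.169)) did not. That fit called 4 members higher and 2 lower, with a median of -0.49. Hsd3b2 overlaps Zfp697 on the other strand.

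Vitamin D and mineral hormone genes had 4 higher and 9 lower of 27 (median -0.37). The shares were 14.8% higher and 33.3% lower, beside 22.4% and 21.2% of all tested genes. S100g, the calcium carrier calbindin-D9k, stood at 36.3, 129, 118 and 167 CPM in controls and 11.1 and 5.83 CPM at day 7 (log2 difference -3.71 ± 0.78 (SE), adjusted p = 0.00265). Kl, the FGF23 coreceptor klotho (-1.31), and the vitamin D receptor Vdr (-0.78) fell, and Cyp24a1, which breaks vitamin D down, rose (1.48). Fgfr3 stood at 79.5, 80.7, 54.8 and 96.1 CPM and 18.8 and 17.4 CPM (log2 difference -2.09 ± 0.28 (SE), adjusted p = 0.000151). Stc2, a secreted regulator of mineral and growth factor signalling, stood at 1.93, 1.75, 1.20 and 0 CPM and 15.4 and 11.0 CPM (log2 difference 3.22 ± 0.56 (SE), adjusted p = 0.000825). In the barcode-set fit Fgfr3 kept its call, S100g (-1.31 (adjusted p = 0.401)) and Stc2 (2.04 (adjusted p = 0.156)) did not, and it called 0 members higher and 4 lower (1 and 7 at an unadjusted p under 0.05), with a median of -0.32. S100g overlaps Ctps2 on the other strand. Leaving out 1 day 7 mouse left 1 to 2 higher and 5 to 6 lower.

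Clock genes had 5 higher and 7 lower of 20 (median -0.25), or 25% higher and 35.0% lower, beside 22.4% and 21.2% of all tested genes. Bhlhe40, a repressor of the clock, stood at 14.1, 11.2, 14.6 and 13.8 CPM in controls and 63.5 and 61.7 CPM at day 7 (log2 difference 2.22 ± 0.23 (SE), adjusted p = 3.43e-05). Csnk1e, a kinase that marks PER proteins for decay, stood at 7.29, 3.72, 3.74 and 5.31 CPM and 36.6 and 33.7 CPM (log2 difference 2.81 ± 0.29 (SE), adjusted p = 3.12e-05). Npas2, an activator, stood at 24.4, 28.7, 21.3 and 28.7 CPM and 101 and 83.2 CPM (log2 difference 1.85 ± 0.27 (SE), adjusted p = 0.000293). Arntl (1.00), its partner, and Rora (1.69), which activates it, rose as well. Bhlhe40 overlaps 0610040F04Rik on the other strand. Among repressors, Per2 stood at 37.2, 45.5, 71.1 and 70.0 CPM and 14.0 and 18.8 CPM (log2 difference -1.77 ± 0.38 (SE), adjusted p = 0.00301), and Per1 (-1.63), Nr1d1 (-2.70) and Ciart (-4.20) fell with it. The repressors Cry1 (0.07), Nr1d2 (0.01), Cry2 (-0.48) and Bhlhe41 (-0.83) were not called. The output factors Dbp (-2.20), Tef (-1.51) and Hlf (-1.64) fell. These genes cycle over the day, and the hour of harvest is not stated. The barcode-set fit called 2 members higher and 3 lower, with a median of -0.50. Bhlhe40 and Csnk1e were among those higher, and Npas2 (1.13 (adjusted p = 0.112)) and Per2 (-0.78 (adjusted p = 0.373)) lost their call.

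Sterol and lipid synthesis genes had 2 higher and 13 lower of 30 (median -0.58). The shares were 6.67% higher and 43.3% lower, beside 22.4% and 21.2% of all tested genes. Dgat2, which makes triglyceride, stood at 53.3, 89.2, 104 and 81.2 CPM in controls and 11.4 and 13.9 CPM at day 7 (log2 difference -2.70 ± 0.30 (SE), adjusted p = 5.61e-05). Cyp51, a cholesterol synthesis enzyme whose gene overlaps Akap9 on the other strand, stood at 27.2, 32.6, 34.4 and 39.8 CPM and 9.81 and 7.85 CPM (log2 difference -1.91 ± 0.27 (SE), adjusted p = 0.000232). Insig1, the sterol sensor's partner, stood at 11.8, 17.9, 13.1 and 31.8 CPM and 2.16 and 4.99 CPM (log2 difference -2.36 ± 0.57 (SE), adjusted p = 0.00565). Scd1 (-3.17), Idi1 (-2.07) and Hmgcs1 (-1.34) fell, and the cholesterol exporter Abca1 rose (1.26). Lpin1 varied widely among controls, at 154, 76.8, 309.8 and 106 CPM, and was at 28.4 and 36.4 CPM at day 7 (log2 difference -2.32 ± 0.48 (SE), adjusted p = 0.00241). Dgat2 and Cyp51 kept their call in the barcode-set fit, which called 0 members higher and 3 lower (0 and 7 at an unadjusted p under 0.05), with a median of -0.76. Without 1 day 7 mouse there were 0 higher and 6 to 8 lower, and Insig1 was not called without day 7 mouse 1.

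The heat shock and unfolded protein list, the lysosome list and the mitochondrially encoded list had more genes lower than higher. Most of these calls were lost in the barcode-set fit, as were most calls over all tested genes. Of 32 genes of protein folding 3 rose and 13 fell (median -0.85), against 1 members higher and 0 lower (4 and 1 at an unadjusted p under 0.05), with a median of 0.02 in that fit. Hspa8, an abundant chaperone, stood at 319, 472, 511 and 566 CPM in controls and 95.2 and 68.0 CPM at day 7 (log2 difference -2.51 ± 0.56 (SE), adjusted p = 0.00381), and at 153, 51.7 and 28.6 CPM in day 28 mice 1 to 3. Herpud1 stood at 133, 127, 433 and 193 CPM and 31.4 and 26.5 CPM (log2 difference -2.94 ± 0.68 (SE), adjusted p = 0.00478), and at 183, 53.2 and 40.6 CPM at day 28. In both genes day 28 mouse 1, with v2 barcodes, was the highest of the injured libraries. Creld2 stood at 21.1, 16.6, 36.2 and 27.6 CPM and 4.94 and 3.82 CPM (log2 difference -2.52 ± 0.65 (SE), adjusted p = 0.00853). Asns, which makes asparagine and is a target of the stress factor ATF4, was at 0, 1.75, 0.668 and 0 CPM and 3.72 and 4.24 CPM (log2 difference 2.60 ± 0.81 (SE), adjusted p = 0.0218), and its ATF4 relative Trib3 rose (2.74). Without day 7 mouse 1 neither Asns nor Creld2 was called, and without day 7 mouse 2 Asns, Creld2, Hspa8 and Herpud1 were not. Asns was also not called without control 3. The whole list had 1 higher and 2 to 7 lower without 1 day 7 mouse.

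Of 32 lysosome and autophagy genes 2 rose and 10 fell (median -0.30). The shares were 6.25% higher and 31.25% lower, beside 22.4% and 21.2% of all tested genes. The barcode-set fit called 0 members higher and 1 lower (0 and 8 at an unadjusted p under 0.05), with a median of -0.38. Psap, a cofactor of lipid breakdown, stood at 305, 527, 384 and 557 CPM in controls and 113 and 112 CPM at day 7 (log2 difference -1.98 ± 0.31 (SE), adjusted p = 0.00043). Ctsl, a protease, stood at 30.5, 113, 71.5 and 55.2 CPM and 22.0 and 15.6 CPM (log2 difference -1.84 ± 0.43 (SE), adjusted p = 0.00455), and was not called without day 7 mouse 2. Its locus overlaps Gm47123 on the other strand. Atg7, needed to form autophagosomes, stood at 32.1, 27.3, 45.3 and 49.4 CPM and 118 and 114 CPM (log2 difference 1.60 ± 0.29 (SE), adjusted p = 0.00108). Psap (-1.46 (adjusted p = 0.0803)), Ctsl (-1.87 (adjusted p = 0.138)) and Atg7 (0.78 (adjusted p = 0.294)) kept their sign and lost their call in the barcode-set fit. Cd63, a membrane protein of late endosomes, stood at 92.1, 189, 104 and 187 CPM and 30.2 and 53.7 CPM (log2 difference -1.77 ± 0.61 (SE), adjusted p = 0.0346). Its call was lost without either day 7 mouse, without control 2 (adjusted p up to 0.095) and without control 4 (adjusted p = 0.0721), and its sign turned in the barcode-set fit, at 0.46 (adjusted p = 0.695). With scaling by total UMIs alone, 6 members of the list rose and 7 fell. With either day 7 mouse left out the list had 1 higher and 5 lower.

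All 12 tested mitochondrially encoded genes fell (median -4.15), also in DESeq2, and the barcode-set fit called 0 members higher and 0 lower (0 and 2 at an unadjusted p under 0.05), with a median of -1.39. mt-Nd1, a subunit of complex I, stood at 95.4, 151, 284 and 53.6 CPM in controls, 5.01 and 5.94 CPM at day 7 and 40.7, 4.71 and 4.83 CPM in day 28 mice 1 to 3 (log2 difference -4.75 ± 0.99 (SE), adjusted p = 0.00256). mt-Atp6, mt-Nd2 and mt-Cytb differed by -4.52, -4.33 and -4.28. These transcripts are made outside the nucleus, and their level is commonly used as a measure of carried-over cytoplasm in sorted nuclei. Day 7 mice and v3-barcoded day 28 mice were alike, and day 28 mouse 1 lay just below the lowest control, so injury and barcode set cannot be told apart for this list within the 6 libraries. Leaving out 1 day 7 mouse left 0 higher and 7 to 9 lower, the fewer without mouse 1, and the length offset left 8 lower.

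**Figure D3:**
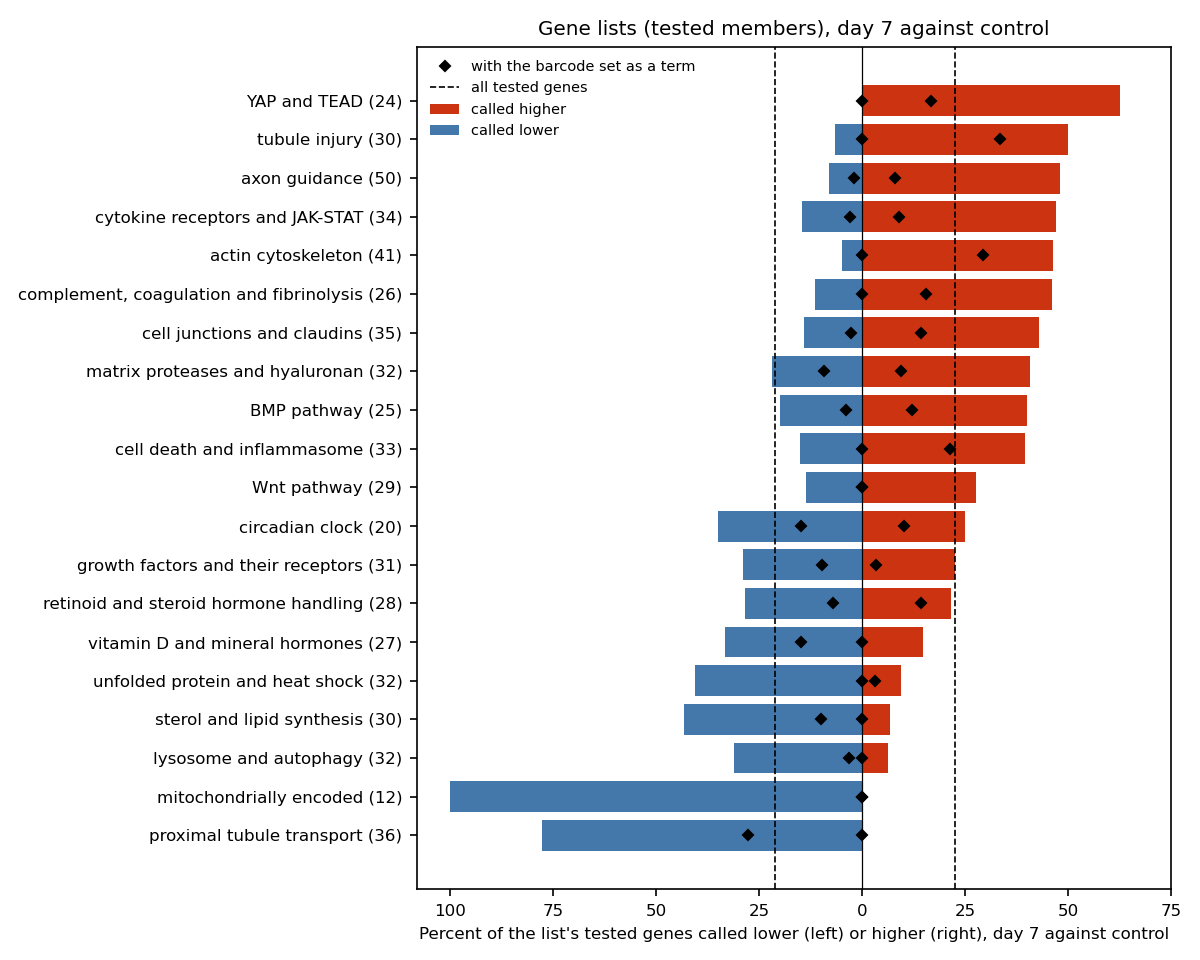
Percent of the tested members of 20 gene lists called higher (right) or lower (left) at day 7 against control; dashed lines are the shares over all tested genes (22.4% and 21.2%) and diamonds are the shares with the barcode set as a term. Over all tested genes the second fit called 3.83% higher and 3.3% lower. Several lists have no lower call in it, among them tubule injury, actin, Wnt, cell death, protein folding and mitochondrially encoded.

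The makeup of the sums was described by marker lists, in UMIs per 1000000 UMIs of a library. Proximal tubule markers summed to 10702, 12364, 12940.0 and 11334 in controls and 3124 and 3706 at day 7, with means of 11835 ± 1006 (SD, n = 4) and 3415 ± 411 (SD, n = 2). Injured proximal tubule markers summed to 265, 179, 162 and 215 and 5539.6 and 6106, 28.4 times the control mean. The groups did not overlap on either sum, so that the markers went the way of the labels, injured tubules at day 7 and nephron in controls. The injured list includes Krt20, for which the sort selected, and both lists were chosen with earlier results of these data known. Their sums are therefore a check of the labels and no finding. With 2 against 4 libraries the smallest p of a two-sided exact permutation test is 0.133, from 15 splits, so no sum can pass a threshold of 0.05. Thick ascending limb markers summed to 2075, 712, 566 and 973 in controls and 533 and 479 at day 7. Distal convoluted tubule markers summed to 884, 542, 447 and 549.7 and 802 and 786, and the groups overlapped.

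Summed markers of stroma, endothelium, macrophages and lymphocytes had higher means at day 7. Stromal markers were at 32.7 ± 10.2 (SD, n = 4) and 112 ± 8.55 (SD, n = 2) per 1000000 in controls and at day 7, endothelial markers at 85.8 ± 37.5 (SD, n = 4) and 157 ± 8.43 (SD, n = 2), macrophage and monocyte markers at 38.2 ± 14.5 (SD, n = 4) and 62.9 ± 6.92 (SD, n = 2) and lymphocyte markers at 14.2 ± 6.16 (SD, n = 4) and 23.1 ± 6.05 (SD, n = 2). The ranges of lymphocyte markers overlapped, and those of the other 3 did not. Red blood cell markers were at 12 ± 9.70 (SD, n = 4) and 2.98 ± 0.161 (SD, n = 2) and urothelial markers at 11.4 ± 13.1 (SD, n = 4) and 3.41 ± 0.859 (SD, n = 2), lower in mean at day 7 with ranges that overlapped. Some defining genes had few UMIs in controls: Col1a1 had 3, 0, 6 and 0 UMIs in controls and 52 and 36 at day 7, Ptprc had 13, 14, 9 and 0 and then 197 and 72, and Cdh5 had 4, 6, 7 and 3 and then 42 and 17. Other members overlapped or were lower at day 7, in UMIs not scaled by library. Csf1r had 127, 39, 33 and 35 and then 165 and 119, and Tyrobp 5, 6, 12 and 0 and then 5 and 5. Ms4a1 had 17, 20, 18 and 15 and then 4 and 9. Called higher were 6 of 9 tested stromal (66.7%), 2 of 7 endothelial (28.6%), 2 of 8 macrophage (25%) and 1 of 4 lymphocyte markers (25%). Beside the 22.4% of all tested genes, only the stromal share stood well above. Called lower was 1 lymphocyte marker. Cd3e, Cd3g and Cd79a of the lymphocyte list were not analysed here. Of nuclei, 1.98% to 4.99% in controls and 16.9% and 12.1% at day 7 held 2 or more UMIs of endothelial, stromal, macrophage or lymphocyte markers. That cutoff was not scaled to depth. The lowest share, in control 4, went with a median of 668 UMIs per nucleus, and the highest, in day 7 mouse 1, with 3172. Depth and cell makeup cannot be told apart in these shares. Leaving out the nuclei at or above the cutoff gave 3341 genes higher and 3207 lower, of which 3240 and 3094 were among those called with all nuclei. Podocyte markers summed to 1118, 589, 969 and 326 in controls and 2006 and 1854 at day 7. Of that sum Magi2, which is not specific to podocytes, made up 90.0% to 97.7% in every one of the 6 libraries, while the podocyte slit gene Nphs1 had 57 UMIs in day 7 mouse 1 and 34 in mouse 2.

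**Figure D4:**
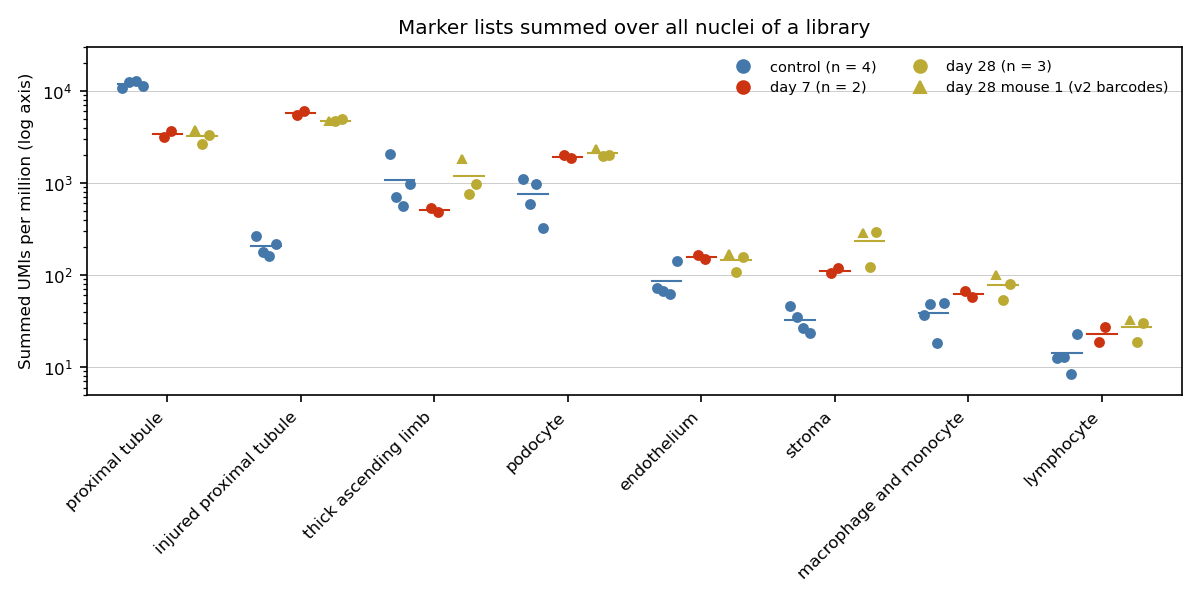
Summed UMIs of 8 marker lists per 1000000 UMIs of a library, on a log axis, for 4 control, 2 day 7 and 3 day 28 libraries; points are mice, lines are group means, the triangle is day 28 mouse 1. Proximal tubule markers are lower and injured proximal tubule markers higher at day 7, with stromal markers about 3.43 times the control mean.

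Gene span, from first to last annotated base, went with the direction of the difference. Tested genes were put in 5 equal groups by span. In the group of the shortest, up to 8.94 kb, the median log2 difference was -1.05, and 5.10% rose and 41.8% fell. In the group of the longest, from 83.0 kb up, the median was 0.47, and 38.1% rose and 11.8% fell. The medians climbed through all 5 groups, at -0.18, 0.13 and 0.41 in between. In the barcode-set fit the same groups had medians of -0.37, -0.18, -0.07, 0.09 and 0.17, a smaller span of values in the same order. With an offset for span in each library, 2964 genes rose and 3224 fell, and 2540 and 2529 of these were among the genes called without it. The mitochondrially encoded and protein folding lists had the shortest median spans of the 20 lists, 0.871 and 13.2 kb, followed by tubule injury at 15.3 kb, and axon guidance had the longest at 151 kb. With the offset for span, axon guidance had 20 higher and 7 lower (median 0.41), cell junctions 13 and 3 (median 0.35), growth factors and receptors 6 and 11 (median -0.30), protein folding 5 and 10 (median -0.60), tubule injury 18 and 0 (median 1.44), and the mitochondrially encoded genes 8 lower (median -2.355).

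**Figure D5:**
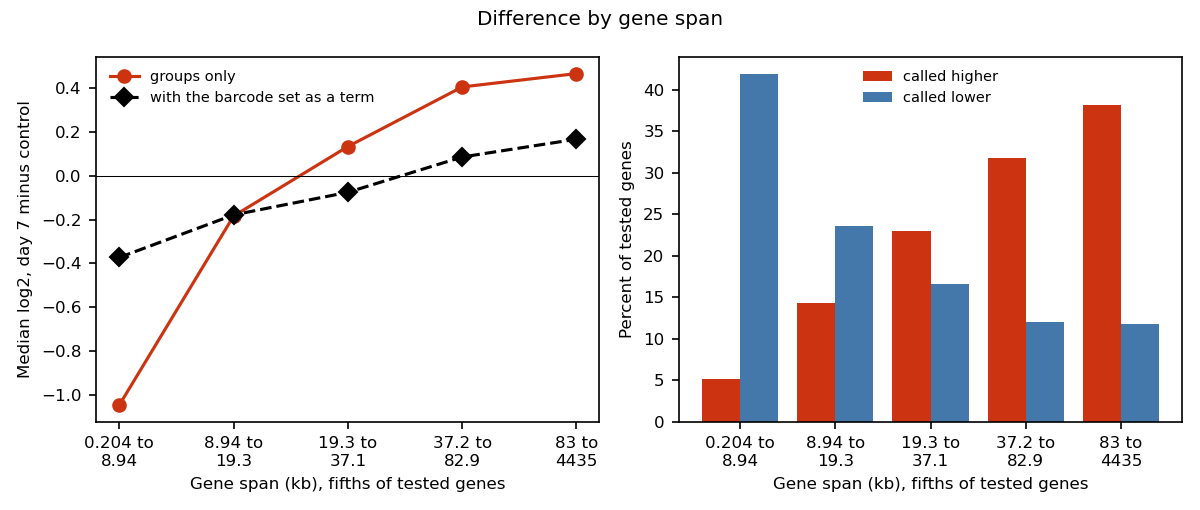
Left, median log2 difference of day 7 minus control in 5 equal groups of tested genes ordered by gene span in kb, with groups only (circles) and with the barcode set as a term (diamonds). Right, percent of genes in each group called higher or lower; the share called higher climbs from 5.10% to 38.1% with span and the share called lower drops from 41.8% to 11.8%.

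The 2 day 7 mice were closer to each other than any 2 controls. Of genes with at least 30 UMIs in both, 1.15% differed by more than 2-fold between the day 7 mice, against 4.57% to 13.3% between pairs of controls. Among called genes, 6 were named for the largest difference between them. Epo, the hormone erythropoietin (chr5:137483020-137533242, minus strand), was the first of these, at 35.2 and 7.74 CPM in mice 1 and 2, against 136, 130.1, 114 and 106 CPM in controls (log2 difference -2.48 ± 0.48 (SE), adjusted p = 0.00163). Epo stood at 155, 114 and 98.4 CPM at day 28. Its annotated span overlaps Gigyf1, Gm8066 and 9130604C24Rik on the other strand, and nephron cells are not its known source, so the identity of these reads is uncertain. Gm26804 and Gm26518, which overlap Gm15319 and Pcbp2 with Prr13 on the other strand, had the same order, at 29.4 and 6.79 CPM and 22.9 and 6.79 CPM. Ubb, ubiquitin B, stood at 176, 239.5, 232 and 282 CPM in controls, 13.3 and 4.24 CPM at day 7 and 218, 28.3 and 18.4 CPM at day 28 (log2 difference -4.70 ± 0.98 (SE), adjusted p = 0.00246). Day 28 mouse 1, with v2 barcodes, lay in the control range for Ubb, and the barcode-set fit gave -1.49 (adjusted p = 0.185). That fit also lost the calls of Epo (-1.94, adjusted p = 0.137), Gm26804 (-2.13, adjusted p = 0.114) and Gm26518 (-1.03, adjusted p = 0.362). The call of Ccnb1ip1 (2.30, adjusted p = 0.31) was lost in it too, and Gm17268 (5.16, adjusted p = 0.00175) kept its call. Ccnb1ip1 was higher in mouse 2, at 3.59 and 12.1 CPM against 1.34, 1.97, 1.20 and 0 CPM in controls (log2 difference 2.61 ± 0.66 (SE), adjusted p = 0.00752), and was not called without that mouse. Gm17268 stood at 3.57, 3.72, 2.01 and 2.12 CPM in controls and 30.6 and 8.91 CPM at day 7 (log2 difference 2.76 ± 0.72 (SE), adjusted p = 0.00848). It was not called without day 7 mouse 1, and its locus (chr11:82028224-82038562, minus strand) overlaps Ccl2, the monocyte chemokine, on the other strand. Gm26804 differed by -1.34 (adjusted p = 0.0395) and was not called without day 7 mouse 2 or without control 2.

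The 4 well-covered genes with the difference nearest to 0 were Tbc1d14, Sil1, Dmd and Cstf3. Dmd, dystrophin, stood at 54.5, 51.6, 38.1 and 73.8 CPM in controls and 54.4 and 53.7 CPM at day 7, a log2 difference of 0.00 ± 0.25 (SE). Sil1, a chaperone cofactor, stood at 143, 117, 216 and 112 CPM and 144 and 151 CPM. Cstf3 overlaps Tcp11l1 on the other strand. In each of the 4 the day 7 libraries lay within the control range. Malat1, whose shares of UMIs are given above, fell (log2 difference -1.55 ± 0.41 (SE), adjusted p = 0.00924). This call was lost without day 7 mouse 2, with the offset for gene span (adjusted p = 0.147) and in the barcode-set fit (-1.66, adjusted p = 0.226).

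Day 28 libraries come from the same mouse line and sort as day 7. These libraries differ from day 7 in time after injury. Mouse 1 also differs in barcode set and in the depth and 48 h creatinine given above. All day 28 libraries are compared with the same 2 day 7 libraries, so the 2 comparisons are not independent. Over all genes 534 (3.5%) were higher and 123 (0.805%) lower at day 28 than at day 7. Cd44 stood at 159, 194 and 267 CPM at day 28, below day 7 by a log2 difference of -1.40 ± 0.32 (SE, adjusted p = 0.0288). Havcr1 stood at 248, 296 and 174 CPM (-1.92 ± 0.38, adjusted p = 0.013), and both genes remained far above their control CPM. Diaph3 (-2.62 ± 0.32, adjusted p = 0.00172), Hmmr (-3.66 ± 0.93, adjusted p = 0.046) and Bmper (-1.64 ± 0.41, adjusted p = 0.0421) were lower at day 28 too. Fgfr2 stood at 359, 368, 419 and 428 CPM in controls, 136 and 99.7 CPM at day 7 and 896, 619 and 496 CPM at day 28 (2.51 ± 0.31, adjusted p = 0.00172), below controls at the first time and above them at the second. At day 7 against control Fgfr2 differed by -1.74 (adjusted p = 0.00062), and by -1.06 (adjusted p = 0.125) in the barcode-set fit. The annotated Fgfr2 span overlaps Ctbp2 on its own strand and 12 tested genes on the other strand. Vegfa was higher at day 28 by 0.92 ± 0.23 (adjusted p = 0.0434) and stayed below every control. For Vcam1 the day 28 libraries stood at 572, 364 and 538 CPM, and the difference from day 7 was not called (adjusted p = 0.125). Sox9 stood at 58.6, 51.5 and 54.5 CPM and was not called either (adjusted p = 0.596).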

How the data were processed

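Single-nucleus RNA libraries (10x, 3' end) of GFP-positive nuclei sorted from mouse kidneys were used, 1 per mouse, with 4 control, 2 day 7 and 3 day 28 libraries. The values are whole-number UMI counts per gene and nucleus, in 2 tables deposited by the authors, 1 for control and 1 for injured kidneys. Cell Ranger, STAR, Seurat and mm10 are named in the submitters' processing notes, without versions, and whether reads were counted by strand is not stated. Each nucleus was given to a mouse by its column name, and 0 columns were left unmapped. The barcode set of each library was read from the starts of its barcodes.

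Counts of all nuclei were summed per library over 16939 genes listed in both tables. Low genes were removed with edgeR's filterByExpr, libraries were scaled by TMM, and all 9 libraries entered 1 quasi-likelihood fit (edgeR 4.0.16, limma 3.58.1, R 4.3.3), with Benjamini-Hochberg adjustment at 0.05 over 15275 genes. CPM are counts per 1000000 with TMM scaling. DESeq2 1.42.0 was an alternative. No doublet caller was run, since the labels state a doublet gate at the sorter. The deposited counts fix a precision by depth: 1833617 to 14641038 UMIs in the 6 libraries compared. Libraries are separate mice, and p-values measure the spread between libraries within the groups, with 2 mice at day 7. The day 28 group held both barcode sets, so this spread includes any difference between the sets. Without day 28 mouse 1, 3946 genes rose and 3729 fell at day 7. The fit was run on simulated counts with known changes and the same spread for every gene. The simulation held no difference of barcode set, mouse line or sort, so it cannot say how the fit handles these. Figures and tables used Python 3.11.15, pandas 2.3.3, numpy 2.4.6, scipy 1.17.1 and matplotlib 3.10.9.

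The members of the gene and marker lists, the rules and the tests were chosen with earlier results of these data known. Genes were named by rule: the 12 largest rises and 12 largest falls among called genes with at least 30 UMIs in each library of the higher group and no overlap, the 4 called members of each list with the largest change, 9 anchors (Havcr1, Krt20, Vcam1, Spp1, Lcn2, Slc34a1, Lrp2, Hnf4a and Malat1), the 4 uncalled genes with at least 100 UMIs in all 6 libraries nearest to a difference of 0, and the 6 called genes, changed over 2-fold, that differed most between the day 7 mice. A gene that this rule names is not reported here. Other genes of the lists are given as examples chosen after their values were seen. Promoter windows are RefSeq's (GRCm38.p6).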

Additional observations from a re-analysis of the deposited data

Results flagged for a closer look

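In 12 of 117 named genes 1 control mouse stood apart from the other 3 by Dixon's criterion. Control 1 was the highest for Traf1 (0.744 CPM), Plat (11.3 CPM), Cald1 (48.4 CPM) and Efnb2 (9.08 CPM). Control 2 was the highest for Ptchd1 (1.53 CPM), Slco5a1 (0.656 CPM), Rarres2 (54.5 CPM) and Cldn1 (14.2 CPM). Control 3 was the lowest for Cd44 (0.936 CPM) and the highest for Sema3c (199.2 CPM), and control 4 was the highest for Gm5833 (2.12 CPM) and Lrp5 (16.5 CPM). For Traf1, Ptchd1, Slco5a1 and Gm5833 the other 3 controls were listed at 0, so that any value above 0 in the remaining one meets the criterion. For genes with counts in all libraries chance gives about 1 in 20. In all 12 genes the day 7 libraries did not overlap the controls, which the naming rule required of the largest rises and falls.

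In 14 named genes day 28 differed from day 7 in edgeR's quasi-likelihood test, with log2 differences of day 28 minus day 7 of -1.40 for Cd44, -1.92 for Havcr1, -2.94 for Gm5833, -2.62 for Diaph3, -1.64 for Bmper and -3.66 for Hmmr. Differences above 0 were 0.92 for Vegfa, 2.51 for Fgfr2, 2.49 for Epo, 3.55 for Gm26804, 5.51 for Gm17268, 3.13 for Gm26518, 5.94 for Gm16193 and 7.39 for Gm48072. The value of Gm48072 is a fitted one against day 7 libraries that are both at 0 and is no bound. Gm17268 reached 1972, 319.5 and 431 CPM in day 28 mice 1 to 3.

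Of 2403 genes listed only in the table of injured kidneys, 53 had at least 30 UMIs in each day 7 library. The 5 with the most UMIs over both day 7 libraries were Basp1 (1137), Gm48099 (1106), Gm29337 (754), Gpr176 (698) and Xirp2 (641). These genes were not tested in the main comparison, and their level in controls was not analysed here.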

How the results depend on the processing

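Across 25 alternatives, 94 of 117 named genes stayed on the same side of the threshold in every one but the barcode-set fit, and 57 in all of them. Direction was counted for called genes only, and the 4 genes nearest to 0 changed sign between settings. At day 7 against control 3427 genes were higher and 3232 lower. The barcode set as a term gave 585 and 504, of which 557 and 462 were among the main calls, and a test against 2-fold gave 1257 and 1542. Scaling by total UMIs only gave 4432 and 2567 (63.3% of calls higher, against 51.5%) and moved the median of all genes to 0.209. Leaving out 1 library gave 1766 to 3946 higher and 1737 to 3729 lower, the lowest of each without day 7 mouse 2, and 1818 and 1884 without day 7 mouse 1. The barcode-set fit turned the sign of Smcp (0.62), Sema7a (-3.005), Cd63 (0.46), Smad9 (-4.75), Fgf7 (-3.72) and Hmmr (-2.33), and 50 more named genes were no longer called in it. The cause was not tested. For day 28 against day 7 (534 higher, 123 lower), DESeq2 gave 1065 and 333, only the libraries compared 313 and 80, a replicate block 286 and 38, and a test against 2-fold 263 and 14. Lower counts were 80 with upper quartile factors, 236 with a length offset and 283 with each 0 set to 2 UMIs, an alternative chosen after seeing the data. Leaving out 1 library gave 95 to 592 higher and 6 to 181 lower, with 252 and 27 without day 7 mouse 1, 95 and 6 without day 7 mouse 2, and 71, 70 and 66 lower without control 2, day 28 mouse 2 and day 28 mouse 3. The other added alternative, genes of either table, kept all named calls. Replicate numbers did not pair the mice (correlations 0.024 and -0.057 for numbers 1 and 2), and the replicate block gave 2546 higher and 2540 lower at day 7. Further list counts that moved by over 1.5 times with 1 library left out were as follows. Without control 1 the sterol list had 5 higher and the injury list 1 lower. Without control 2 the vitamin D list had 2 higher, the sterol and lysosome lists 1 each and the cell death list 3 lower. Without control 3 the vitamin D list had 2 higher, the protein folding and sterol lists 1 each and the actin list 4 lower. Without control 4 the sterol list had 1 higher, the injury list 1 lower and the cytokine list 8 lower. Without day 28 mouse 1 the actin list had 6 lower, the axon guidance and cytokine lists 8 lower each and the lysosome list 5 higher, and without day 28 mouse 2 or 3 the injury list had 1 lower. Depth limits the low genes: control 4 held 1833617 UMIs, and 3 UMIs per library were the floor for a bound.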
